A study of Mus musculus with 6 samples.

Results

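FGF-ERK feedback and immediate target genes were followed as 10 genes, Dusp9, Dusp6, Dusp4, Spry2, Spry4, Spred1, Etv4, Etv5, Egr1 and Fos, in mouse embryonic stem cells without Dppa2. Every probe whose RefSeq accession carries the symbol of a member was taken, which gave 15 probes of 41174 on the array, and 14 of the 15 were well above background on all 6 arrays. The genes were chosen with their values in these arrays known, so their levels and differences are given as a description. Where a limma fit over all probes called a member, the call is printed and nothing is read from it.

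The study asked what changes when stem cells lose Dppa2, a nuclear protein with a SAP domain that is also called ECAT15-2, and what its return restores. Total RNA was labelled with Cy3 and hybridised to 6 Agilent whole mouse genome arrays of 1 colour, 2 arrays in each of 3 groups. The lines came from blastocysts of 2 pairs of heterozygous parents and were grown for 3 days on gelatin with 15% FCS and LIF. Knockout arrays with the same replicate number share a knockout line, while a wild-type array shares only the mother with them.

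The wild-type lines were 15-1+/+ and 15-2+/+ and received no vector. The mock knockout lines were 15-2-/- and carried piggyBac-CAG-IP without an insert. The lines called Flag-Dppa2 were those same 15-2-/- lines with piggyBac-CAG-Flag15-2-IP, in which the broadly active CAG promoter drives Flag-tagged Dppa2. All knockout lines were also 15-1CT/CT, that is homozygous for a conditional targeted allele of ECAT15-1 (Dppa4), which the wild-type lines did not carry. The strain background was a mixture of 129Sv, C57/BL6 and transgenic mice of unknown background. A comparison with wild type therefore also holds the vector and the Dppa4 allele.

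FGF signalling in embryonic stem cells runs from FGF ligands through receptor tyrosine kinases and the adaptors Frs2, Grb2 and Sos to RAS, RAF, MEK and the ERK kinases. Active ERK switches on 2 kinds of genes that are often read as its output. Immediate early genes such as Egr1 and Fos encode transcription factors, and the ETS factors Etv4 and Etv5 follow the level of FGF signalling in many tissues. Feedback genes turn the cascade down again: Dusp6 and Dusp9 dephosphorylate ERK in the cytoplasm, Dusp4 dephosphorylates it in the nucleus, and Sprouty and Spred proteins act between the receptor and RAF. In mouse embryonic stem cells this cascade favours exit from the naive state, and LIF works against that exit.

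The sequences just upstream of 3 members are shown because the genes lay at 3 different places in the comparison of mock knockout with wild type: Spry2 lay above wild type in both knockout lines, Dusp6 lay above it by unequal amounts, and Fos lay close below it in the first line and far below it in the second. Each run is the 250 bases before the annotated start in RefSeq on GRCm38.p6, written 5′ to 3′ on the strand of the gene: Spry2 at chr14:105896820-105897069 on the minus strand, Dusp6 at chr10:99262981-99263230 on the plus strand and Fos at chr12:85473640-85473889 on the plus strand. Capitals mark GGAA, the core that ETS factors such as Etv4 and Etv5 recognise, on either strand in Spry2 and Dusp6, and TGACG, the core of the cAMP response element, in Fos.
Spry2: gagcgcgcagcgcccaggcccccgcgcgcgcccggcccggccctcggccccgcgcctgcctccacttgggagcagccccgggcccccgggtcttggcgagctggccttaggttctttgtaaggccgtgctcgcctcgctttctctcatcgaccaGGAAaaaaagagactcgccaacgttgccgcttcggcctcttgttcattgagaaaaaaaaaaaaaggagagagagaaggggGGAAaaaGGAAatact
Dusp6: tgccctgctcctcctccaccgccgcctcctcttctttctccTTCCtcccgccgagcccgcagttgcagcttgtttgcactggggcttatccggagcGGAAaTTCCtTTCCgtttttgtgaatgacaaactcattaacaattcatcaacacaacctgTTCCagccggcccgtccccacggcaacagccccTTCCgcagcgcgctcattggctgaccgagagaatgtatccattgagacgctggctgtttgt
Fos: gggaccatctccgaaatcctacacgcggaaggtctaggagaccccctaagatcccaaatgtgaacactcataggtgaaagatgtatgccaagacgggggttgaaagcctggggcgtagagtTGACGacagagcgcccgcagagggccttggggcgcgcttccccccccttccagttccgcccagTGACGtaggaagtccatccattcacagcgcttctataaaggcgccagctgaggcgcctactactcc

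RefSeq windows were matched for 5 members. The core GGAA occurred 3 times in the window of Spry2, 6 times in that of Dusp6, 4 times in that of Spred1 and 5 times in that of Fos, counted on both strands. For Etv5 it occurred 0 times before 1 annotated start and 4 times before another. Of 32851 windows of this length in the table, 93.4% held GGAA at least once and 18.0% held it at least 5 times. The longer CGGAAG, which contains GGAA, occurred once each in Dusp6, Spred1 and Fos and in 13.6% of all windows. TGACG occurred 2 times in Fos, which 3.90% of all windows matched or exceeded, and 0 times in the windows of the other members. TATAAA occurred once in Fos, against 12.4% of all windows, and CCAAT occurred 3 times before 1 start of Etv5, once before the other and once in Dusp6, against 33.8% of windows with at least 1. The AP-1 motif TGANTCA, found in 6.75% of all windows, and the CArG box, found in 1.47%, had no match in the members' windows. These matches describe letters in short windows and no binding was measured.

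All levels below are scanner signals in intensity units, or log2 levels relative to the 75th percentile of the array's signal. Differences are log2 differences of group means with the SE of a limma fit over all 6 arrays and 24829 probes. Each SE pools the spread within all groups, the wild-type pair included, and does not pair mock and Flag-Dppa2 arrays by line. The wild-type arrays are labelled as different lines. They differed from each other by less than the scanner's own error estimate. Of 14986 bright spots, 0.487% lay beyond its 95% limit, where 5% are due. The shares were 22.6% between the mock arrays and 25.01% between the Flag-Dppa2 arrays. So the wild-type value printed is a plain mean of both arrays, and each knockout value is a mean with its SD (n = 2). The 2 arrays of a knockout group are of different lines, so their spread is that between lines. With the closer wild-type pair pooled in, an SE can understate the spread between knockout lines. The p-values measure only the spread between these samples. The 75th percentile of the signal ran from 712 to 857 intensity units, 55.9% to 60.3% of probes were above background, no spot was saturated, and precision is limited by how few arrays there were.

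Dusp9, the cytoplasmic ERK phosphatase that lies on chromosome X, stood higher in all 4 knockout arrays than in wild type on both of its probes. Its brighter probe (A_52_P648601) gave signals of 5399.8 and 5681 in wild type, 10246 and 9359.7 in mock knockout, and 11119 and 10257 with Flag-Dppa2. The 3 groups did not overlap on the scaled levels, and both lines stood at nearly the same place. The level was 2.72 in wild type, 3.67 ± 0.0041 (SD, n = 2) in mock knockout and 3.83 ± 0.025 with Flag-Dppa2. Mock knockout lay 1.92-fold above wild type (log2 difference 0.94, SE 0.09), and Flag-Dppa2 lay 2.15-fold above it (1.11, SE 0.09). The Flag-Dppa2 level was 0.17 above mock.

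The dimmer Dusp9 probe (A_52_P575658) gave 505 and 625 in wild type, 1192 and 1175 in mock knockout, and 1396 and 806 with Flag-Dppa2. Wild type again lay below every knockout array, but the Flag-Dppa2 arrays lay on both sides of the mock arrays. The differences were 1.19 for mock against wild type and 1.08 for Flag-Dppa2 against wild type (SE 0.25 each). Between Flag-Dppa2 and mock the probes differed in sign in the second line, at -0.49 on the dimmer and 0.18 on the brighter probe. In the first line they lay at 0.26 and 0.15. Both probes read the same gene and are not replicates of a group.

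Dusp6, the phosphatase most used as a readout of FGF and ERK activity, stood high in 1 knockout line and near wild type in the other. Its probe (A_51_P502614, chromosome 10) read 17751 and 18948 in wild type, 29605 and 19546 in mock knockout, and 29103 and 15989 with Flag-Dppa2. In signal, the first line was the high one with either vector. The scaled difference of mock from wild type was 0.51 (SE 0.30), made of 0.74 in the first line and 0.28 in the second. With Flag-Dppa2 it was 0.39 against wild type, from 0.75 and 0.04. On scaled levels every knockout array lay above both wild-type arrays, and mock and Flag-Dppa2 overlapped.

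Dusp4, the nuclear phosphatase of the ERK group, gave a small and even difference. Its probe (A_51_P518051, chromosome 8) read 909.6 and 981 in wild type, 1186 and 1111 in mock knockout, and 1296 and 1202 with Flag-Dppa2. The groups did not overlap, in the order wild type, mock, Flag-Dppa2. Mock lay 0.40 above wild type and Flag-Dppa2 0.56 above it (SE 0.09 each), and the step from mock to Flag-Dppa2 was 0.16 in each line.

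Spry2, a Sprouty protein that restrains signalling between the receptor and RAF, stood above wild type on both probes. The brighter probe (A_52_P368532, chromosome 14) read 4075 and 4403 in wild type, 8177 and 6014 in mock knockout, and 6466 and 5017 with Flag-Dppa2. The dimmer probe (A_51_P445153) read 249 and 237, then 466 and 368, then 380.4 and 348. No knockout array reached down to the wild-type arrays on either probe. Mock lay 0.85 (SE 0.15) above wild type on the brighter and 0.89 (SE 0.12) on the dimmer probe, or 1.80-fold and 1.85-fold. Flag-Dppa2 lay between, at 0.59 and 0.74 above wild type and 0.26 and 0.15 below mock. The groups mock and Flag-Dppa2 overlapped on the brighter probe and not on the dimmer one.

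Spry4, the Sprouty relative on chromosome 18, was the member whose Flag-Dppa2 arrays lay farthest below mock. Its measured probe (A_52_P204311) read 289 and 285 in wild type, 686 and 488 in mock knockout, and 361 and 206 with Flag-Dppa2. Both mock arrays lay above all other arrays, and the Flag-Dppa2 arrays lay on both sides of wild type. Mock stood 1.13 (SE 0.27) above wild type, or 2.19-fold. Flag-Dppa2 stood 1.05 (SE 0.27) below mock, by 0.89 in the first line and 1.20 in the second, and 0.09 above wild type. The other Spry4 probe (A_51_P250422) read between 14.5 and 25.9, was not well above background on any array, and gives no fold.

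Spred1, which inhibits the activation of RAF by RAS, was dim and followed the lines more than the groups. Its probes on chromosome 2 read 54.4 and 62.6 (A_51_P422996) and 98.6 and 103 (A_52_P637689) in wild type. In mock knockout they read 88.2 and 60.7, and 150.3 and 107.3. With Flag-Dppa2 they read 88.1 and 45.0, and 155 and 70.3. The first line stood above wild type with either vector, whereas the second stood 0.14 and 0.29 below wild type with Flag-Dppa2. The differences of mock from wild type were 0.44 (SE 0.32) and 0.45 (SE 0.36).

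Etv4, an ETS transcription factor of the PEA3 group, had the widest range of group means among the members. Its probe (A_51_P230382, chromosome 11) read 2070.04 and 2241 in wild type, 5946 and 4964 in mock knockout, and 5175 and 3775 with Flag-Dppa2. Every knockout array lay above both wild-type arrays, and the mock arrays lay above the Flag-Dppa2 arrays on scaled levels. The level was 1.36 in wild type, 2.82 ± 0.088 (SD, n = 2) in mock knockout and 2.56 ± 0.21 with Flag-Dppa2. Mock lay 2.74-fold above wild type (1.45, SE 0.14) and Flag-Dppa2 2.29-fold above it (1.20, SE 0.14), with 0.26 between them.

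Etv5, its close relative, stood at nearly one level throughout. One probe (A_51_P323579, chromosome 16) read 499.9 and 494 in wild type, 435 and 495 in mock knockout, and 447 and 517 with Flag-Dppa2. The other (A_52_P631015) read 942 and 992, then 907 and 1019.7, then 907 and 999.1. All groups overlapped on both probes. The differences of mock from wild type were 0.02 (SE 0.19) and 0.11 (SE 0.17), and those of Flag-Dppa2 from wild type were 0.11 and 0.14. The second line stood above the first with either vector, at 0.18 against -0.14 from wild type for mock on the former probe.

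Egr1, an immediate early zinc finger factor on chromosome 18, stood lower in mock knockout. Its probe (A_51_P367866) read 2135 and 1978 in wild type, 1594 and 1133 in mock knockout, and 2011 and 826 with Flag-Dppa2. Both mock arrays lay below wild type, while the Flag-Dppa2 arrays lay far apart, with the first at wild type. The difference of mock from wild type was -0.49 (SE 0.41), from -0.32 in the first line and -0.67 in the second. Flag-Dppa2 stood at 0.05 and -1.08 from wild type.

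Fos, the AP-1 subunit that serves as the classic immediate early gene, was dim. Its probe (A_52_P262219, chromosome 12) is printed in 10 spots per array and read 74.0 and 74.1 in wild type, 67.6 and 33.9 in mock knockout, and 72.6 and 29.5 with Flag-Dppa2. The second line stood low with either vector and the first stood close to wild type. Between spots of 1 array the SD was 0.047 to 0.20 (log2), which holds the error of the spots and not the spread between samples. The differences from wild type in the second line were -0.94 for mock and -1.09 for Flag-Dppa2, and those in the first line were -0.08 and 0.05. The group differences were thus -0.51 for mock and -0.52 for Flag-Dppa2, each with an SE of 0.49.

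**Figure D1:**
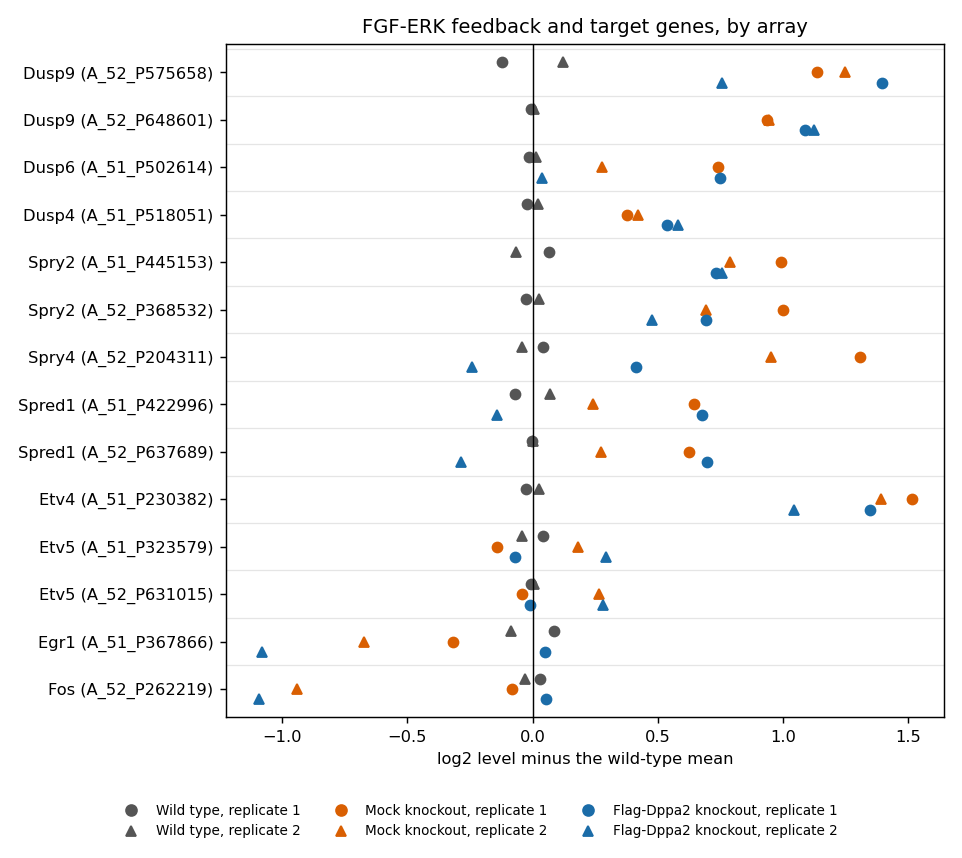
Log2 level of each of the 14 member probes above background on each array, minus the mean of the wild-type arrays; grey marks wild type, orange mock knockout and blue Flag-Dppa2 knockout, and circles and triangles mark replicates 1 and 2. Etv4 lies farthest to the right, at a group difference of 1.45 for mock knockout, and the triangles of Egr1 and Fos lie farthest to the left, at -1.08 and -1.09 with Flag-Dppa2.

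Over the 14 probes, mock knockout lay above wild type on 12 and below it on 2, with a median difference of 0.48 beside 0.05 over all 24829 probes. By gene, 8 members lay above wild type on every probe tested and 2, Egr1 and Fos, below it. Of the probes, 3 passed the limma test across all probes at an adjusted p under 0.05, all higher: 1 of Dusp9, 1 of Spry2 and Etv4. Without either mock array, without either wild-type array or with the wild-type arrays as 1 sample, 0 of the 14 were called. With the replicate number as a block, or with only the arrays of both groups, the Spry2 probe was lost (limma adjusted p = 0.0585 and 0.0612). The latter setting gained the dimmer Dusp9 probe (limma adjusted p = 0.0464). Without the filter on dim probes only Etv4 was called. Normexp background correction and an intensity trend each called 5, with both probes of Dusp9 and of Spry2. Over all probes 5.32% were called in this comparison, 535 higher (2.15%) and 787 lower (3.17%). With quantile normalization the split over all probes was 814 higher and 786 lower. Mock and wild-type arrays did not overlap on 12 member probes, 10 higher and 2 lower, where 36.9% of all probes were higher and 28.4% lower without overlap. The members were chosen on this contrast, so nothing is read from these counts.

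By group means the member probes with Flag-Dppa2 lay nearer to mock than to wild type, except those of Spry4 and the brighter Spred1 probe. Spry4 lay at 0.09 from wild type and -1.05 from mock, and that Spred1 probe at 0.20 and -0.24. Flag-Dppa2 lay above wild type on 12 of the 14 probes (median 0.33, all probes 0.03) and did not overlap it on 7, all higher, where 32.6% of all probes were higher and 27.3% lower without overlap. Against mock it lay above on 4 probes and below on 10 (median -0.12, all probes -0.01). The Dusp9 probe that is brighter passed the limma test against wild type (adjusted p = 0.0381), where 0.588% of all probes were called. It did not pass without any 1 of the 6 arrays (0.0898 to 0.421), with the replicate block (0.0968) or with probes above background on all 6 arrays (0.0522). None passed against mock, where 0.576% were called (0.548% higher and 0.0282% lower). There, 1 member probe, of Spry4, had an unadjusted limma p under 0.05, beside 3145 of all 24829 probes. The members were chosen with these values known, so nothing is read from these levels, calls and counts. The Flag-Dppa2 arrays shared a slide of their own, so slide and vector cannot be told apart in either comparison, whereas mock and wild type shared a slide. In RNA of whole cultures, fewer cells with a transcript and less of it per cell cannot be told apart.

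The calls rest on the wild-type arrays counting as 2 samples. With their mean taken as 1 sample, limma called 0 probes in each of the 3 comparisons, with 2915, 1833 and 2038 probes at an unadjusted p under 0.05 for mock against wild type, Flag-Dppa2 against mock and Flag-Dppa2 against wild type. Taking the replicate number as a block left 569, 4 and 0 called probes.

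Between the lines, mock lay above wild type in both on 10 of the 14 probes, below it in both on 2 and on opposite sides on the 2 probes of Etv5. With Flag-Dppa2, 7 probes lay above wild type in both lines, those of Dusp9, Dusp6, Dusp4, Spry2 and Etv4, and 7 lay on opposite sides. Against mock, Flag-Dppa2 lay below in both lines on 4 probes, those of Spry2, Spry4 and Etv4. It lay above in both on 4, those of Dusp4, Etv5 and the brighter Dusp9 probe, and on opposite sides on 6. The second line stood below the first on 9 probes in each of these 3 differences. Egr1 and Fos lay below wild type in the second line with either vector, and Spred1 and Spry4 only with Flag-Dppa2.

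**Figure D2:**
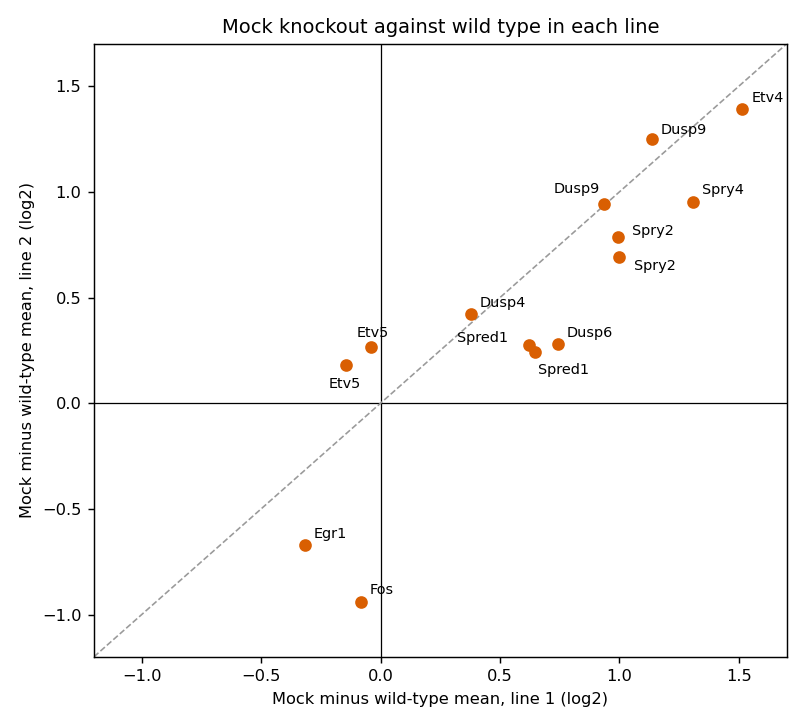
Difference of mock knockout from the wild-type mean (log2) in the first line, horizontal, and in the second line, vertical, for the 14 member probes; the dashed line marks equal differences. Dusp9 at 0.94 in both lines lies on the dashed line, Dusp6 at 0.74 and 0.28 lies below it, and Fos at -0.08 and -0.94 lies farthest from it.

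The other genes of the pathway were taken as 104 genes in 5 lists, of which 100 had a probe and 95 were tested, each by its brightest probe above background on at least 2 arrays. In mock knockout, where limma called 5.32% of all probes, 1 of the 95 rose and 3 fell against wild type at an adjusted p under 0.05. Beside 6582 of all 24829 probes, 25 of the 95 had an unadjusted p under 0.05, and their median difference was -0.06. With the replicate number as a block 1 of them, Fgf5, was called, and with the wild-type arrays as 1 sample, or without either mock array, 0 were. Between Flag-Dppa2 and mock 0 of the 95 were called by limma (0.576% of all probes). At an unadjusted p under 0.05 there were 9, beside 3145 of all 24829 probes. Between Flag-Dppa2 and wild type 0 of the 95 were called by limma (0.588% of all probes). At an unadjusted p under 0.05 there were 17, beside 5269 of all 24829 probes. The same counts over all probes stand beside those of each list below. The comparisons share arrays, so their values are given side by side.

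Among the ligands and their binding proteins, 2 of 8 tested genes fell in mock knockout and none rose (median -0.32). Fgf5, a ligand made when stem cells leave the naive state, read 673 and 694 in wild type, 56.3 and 45.8 in mock knockout, and 285 and 125 with Flag-Dppa2. All mock arrays lay below the Flag-Dppa2 arrays, which lay below wild type. It fell by 3.63 (SE 0.36, limma adjusted p = 0.0206), and stood 1.94 above mock with Flag-Dppa2 without passing the test (limma adjusted p = 0.154). Fgf8, a ligand of gastrulating embryos, read 890.3 and 896 in wild type, 136 and 106 in mock knockout, and 221 and 92.4 with Flag-Dppa2. It fell by 2.78 (SE 0.39, limma adjusted p = 0.0378) and stood 0.29 above mock with Flag-Dppa2 (limma adjusted p = 0.849). Another Fgf8 probe was well above background on 1 array and was not tested, and Fgf4 had no matched probe.

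Among the 17 receptors, co-receptors and adaptors none was called against wild type in mock knockout by limma, with 3 at an unadjusted p under 0.05 (median -0.06). Fgfr1, the main FGF receptor of stem cells, had 3 probes, with differences of -0.18, 0.11 and 0.01. Fgfr2, the receptor linked to primitive endoderm, lay 0.84 (SE 0.47) below wild type in mock knockout on its brighter tested probe and 0.82 below it on the other. With Flag-Dppa2 the lines lay on opposite sides of wild type, at -0.68 in the first and 0.65 in the second on the brighter probe and at -0.62 and 0.42 on the other. Neither group difference passed in either comparison with wild type.

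Among the 18 genes from RAS to ERK and the kinases that ERK activates, 1 fell in mock knockout and none rose (median 0.07). Ksr1, a scaffold that holds RAF, MEK and ERK together, was dim at 132 and 123 in wild type, 43.5 and 49.9 in mock knockout, and 77.6 and 76.2 with Flag-Dppa2. Its groups did not overlap, with Flag-Dppa2 between the other groups. It fell by 1.34 (SE 0.16, limma adjusted p = 0.0285) and stood 0.77 above mock with Flag-Dppa2 (limma adjusted p = 0.18). Mapk3, which encodes ERK1, lay at 0.22 from wild type on both of its probes in mock knockout, and neither passed.

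Among 20 other inhibitors none was called in mock knockout by limma, with 3 at an unadjusted p under 0.05. Of the 20, 16 lay below wild type and 4 above, where 54.5% of all probes lay above. Their median was -0.31, beside 0.05 over all probes. Spry1, the relative of Spry2 and Spry4, read 2039.7 and 2062 in wild type, 723 and 1211 in mock knockout, and 853 and 1056 with Flag-Dppa2. It lay 1.01 (SE 0.34) below wild type in mock knockout, with no overlap, and did not pass (limma adjusted p = 0.16). Spred2, the relative of Spred1, stood at -0.04 (SE 0.22). Il17rd, a membrane inhibitor of FGF signalling also called Sef, stood at -0.15 on its brighter tested probe and 0.45 on the dimmer one.

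Among 32 other target genes 1 rose in mock knockout and none fell (median 0.21). Nr4a1, an immediate early nuclear receptor, read 8270.3 and 8837 in wild type, 14657 and 12002 in mock knockout, and 11807 and 9582 with Flag-Dppa2. It rose by 0.75 (SE 0.11, limma adjusted p = 0.0428), in both lines, and stood 0.28 below mock with Flag-Dppa2. That call was lost with quantile normalization, with the deposited log2 values and without the filter on dim probes. It was also lost with the replicate number as a block and with only the arrays of both groups. Of the other immediate early genes, Egr2 stood at -0.75 (SE 0.51), Ier2 at 0.33 (SE 0.28) and Jun at -0.19 (SE 0.36), and none passed. Plaur, the urokinase receptor, passed on its dimmer probe (1.05, SE 0.17, limma adjusted p = 0.0487) and not on its brighter one (0.96, limma adjusted p = 0.0631), and was named after its values were seen.

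**Figure D3:**
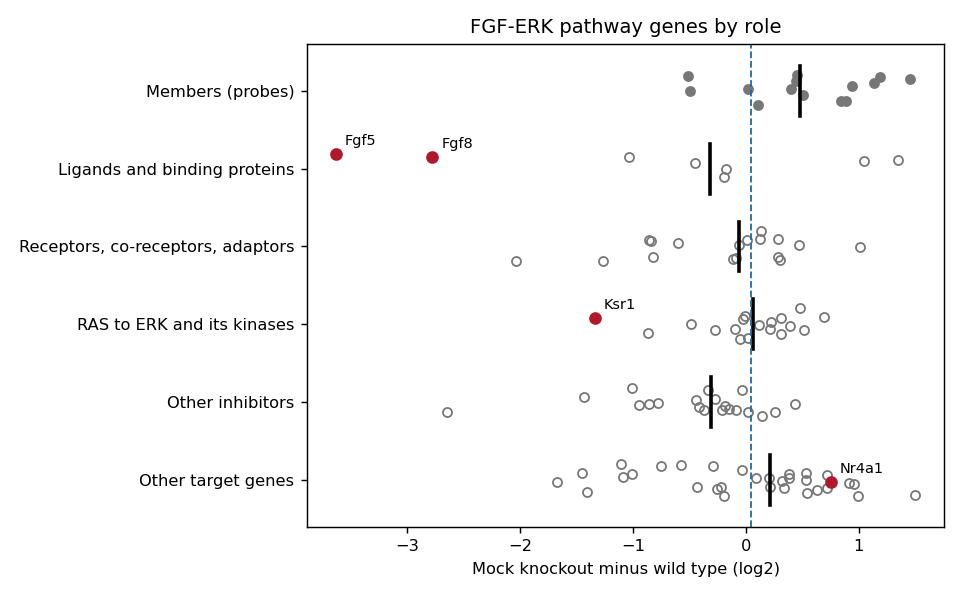
Difference of mock knockout from wild type (log2) for the member probes, filled grey, and for 95 other pathway genes by role; red points passed limma at an adjusted p under 0.05, open points did not, black bars are medians and the dashed line is the median of all probes, 0.05. The median of the members, which were chosen on this contrast, is 0.48. That of the other inhibitors is -0.31, and Fgf5 at -3.63 lies farthest left.

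Dusp9 lies on chromosome X, and the wild-type and knockout lines differed in sex-linked transcripts. Eif2s3y, a Y-linked translation factor gene, read 3303 and 3376 in wild type and at most 5.67 in the knockout arrays, where no Y-linked probe of 7 was above background. This difference in Y-linked transcripts thus cannot be told apart from genotype in any comparison with wild type. The sex of the lines was not checked. Over 633 X-linked probes the median difference of mock from wild type was -0.03 (quartiles -0.42 and 0.23), beside 0.03 over 18724 autosomal probes. Of the X-linked probes 13 were called higher (2.05%) and 35 lower (5.53%), beside 2.22% and 3.26% of the autosomal probes. The Dusp9 probe with the smaller difference was the brighter one, at 0.94. At least that high lay 23 of the 633 X-linked probes, those of Dusp9 included, and 584 of the 18724 autosomal probes. Xist, the RNA that silences an X chromosome, had 1 of 4 probes well above background on 2 arrays, where it read 78.5 in the first mock array and 29.5 in the second Flag-Dppa2 array. Another Xist probe was well above background on 1 array and read 33.0 in the first Flag-Dppa2 array, so the probes differed in which arrays showed signal.

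Of the other X-linked pathway genes, Araf and Klhl13 were named after their values were seen. The rest of those tested lay at -0.83 (Gpc4), -0.87 (Rps6ka3) and 0.21 (Eras) from wild type in mock knockout, and none of them was called. Araf, a RAF kinase, read 3307 and 3470 in wild type, 5601 and 4536 in mock knockout, and 4859 and 3942 with Flag-Dppa2 on its brighter probe. It lay 0.69 (SE 0.12) above wild type in mock knockout (limma adjusted p = 0.051). Klhl13, a ubiquitin ligase adaptor linked to ERK activity in stem cells, read 19330 and 19288 in wild type, 2057 and 3916 in mock knockout, and 9607 and 17229 with Flag-Dppa2. It lay 2.65 (SE 0.49) below wild type in mock knockout (limma adjusted p = 0.0588) and 2.22 above mock with Flag-Dppa2. Neither Araf nor Klhl13 passed the test.

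**Figure D4:**
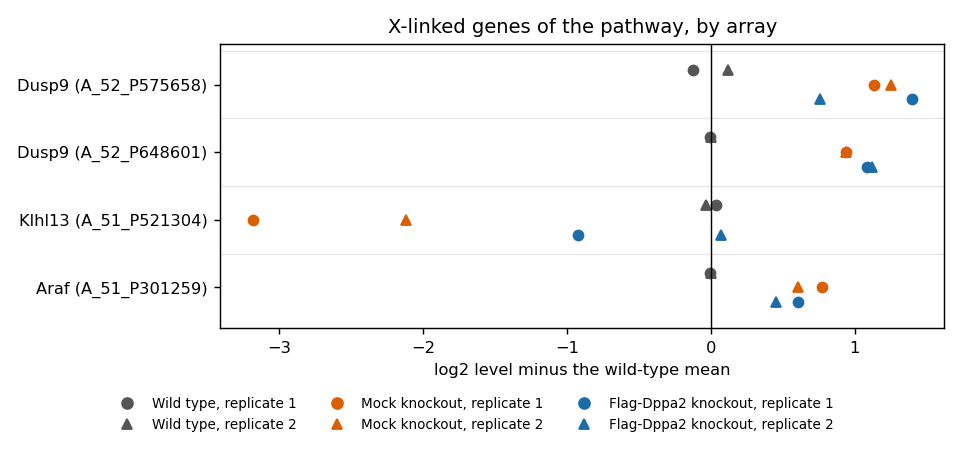
Log2 level of both Dusp9 probes, Klhl13 and Araf on each array, minus the mean of the wild-type arrays, with colours for groups and symbols for replicates. Gpc4, Rps6ka3 and Eras, the other tested X-linked genes of the pathway, are not drawn. Both Dusp9 probes and Araf lie to the right of wild type in all 4 knockout arrays, and Klhl13 lies to the left in mock knockout, at a group difference of -2.65.

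The genes whose pattern over the 6 arrays was most like that of Etv4 were Irgq, Syngr1, Krba1, Akr1b3 and Tbc1d23. Their root mean square distances from Etv4, after centring each gene, were 0.06, 0.09, 0.11, 0.11 and 0.12 (log2), beside a median of 0.65 over 21172 probes above background on all arrays. None of them is another member. Irgq, the nearest, stood at -2.44 in wild type, -1.05 in mock knockout and -1.29 with Flag-Dppa2.

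Dppa2 itself read 3583 and 3602 in wild type, 189 and 186 in mock knockout, and 760.3 and 918 with Flag-Dppa2, in keeping with the labels. Whether its probe lies inside the deleted part was not checked. All 14 stem cell markers with a probe were above background on all arrays, and their summed level, in multiples of the array's 75th percentile, was 597 to 613 in wild type, 741 to 834 in mock knockout and 718 to 817 with Flag-Dppa2. The summed level of 23 fibroblast markers was 36.2 to 38.0 in wild type, 14.8 to 20.6 in mock knockout and 22.8 to 39.6 with Flag-Dppa2, in both cases with the second knockout line lower. Of 17 tested, limma called 3 lower in mock knockout (3.17% of all probes) and 3 higher with Flag-Dppa2 against mock (0.548%). With Flag-Dppa2 against wild type 1 was called lower (0.407%). In mock knockout 1 of 14 stem cell and 1 of 11 trophectoderm markers tested were called higher (2.15% of all probes). There 1 of 12 endoderm markers was called lower. Col6a1, Col6a2, Lum, Prrx1, Bgn and Fap were not well above background on any array. The summed level of 13 endoderm markers ran from 5.03 to 9.61 and that of 12 trophectoderm markers from 28.5 to 142 over all arrays. Most of each stem cell sum was Dppa5a, of each fibroblast sum Tagln and Acta2, and of each trophectoderm sum Krt8 and Krt18. The sums thus say little of the other markers. Median differences of mock from wild type over the tested markers were 0.39 (stem cell), -1.79 (fibroblast), -0.19 (endoderm) and -0.81 (trophectoderm). The part of these cells in the members' differences was not tested.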

How the data were processed

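RNA of 6 mouse embryonic stem cell samples was measured on Agilent arrays of 1 colour. The deposited intensity values are, per the file headers, the output of Agilent Feature Extraction 10.7.3.1 (protocol GE1_107_Sep09): background and spatial trends were subtracted and arrays were not scaled to each other. For the deposited log2 matrix the authors used GeneSpring GX 11, per the series' design text. Set against the scanner values they are quantile-normalized without centring (column medians 5.84 to 5.86), and they served as an alternative.

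Control spots (1639 of 45018) and spots flagged as outliers were left out, which left 41059 of 41174 probes on all arrays, spots of a probe were averaged, and each array's 75th percentile was subtracted on the log2 scale. Probes were named through their RefSeq accessions and a table on GRCm38.p6 (27143 of 41059 probes), and the headers name mm9, so no probe coordinates are given. The 24829 probes well above background on at least 2 arrays went into 1 limma fit of 3 groups (limma 3.58.1, R 4.3.3; residual degrees of freedom 3, prior 1.49), two-sided, with Benjamini-Hochberg adjustment over all probes. Python 3.11.15, numpy 2.4.6, pandas 2.3.3 and matplotlib 3.10.9 made the other tables and the plots. The fit was tested on simulated data.

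The members, the pathway and marker lists and the rules were chosen with earlier results of these data known. Named genes are all members on every probe, Fgf4, Fgfr1, Fgfr2, Mapk3, Spry1, Spred2, Il17rd, Egr2, Ier2 and Jun, every called pathway gene, and the 5 genes most like the member with the widest range. The result for 1 further gene is not reported here. Mock and Flag-Dppa2 arrays of equal replicate number share a line per the labels (correlation of deviations from group means 0.58), while wild type shares only the mother (-0.02 and 0.01). Mock and Flag-Dppa2 arrays are thus paired in the differences by line and in the replicate block, and not in the main fit. Normexp, the background alternative, used spot medians, since no spot means were used here.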

Additional observations from a re-analysis of the deposited data

Results flagged for a closer look

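Egr1, Fgfr1 and Fgfr2 stood in opposite directions in the 2 knockout lines, and with 1 array per line and vector these differences were not tested. Egr1 stood 0.37 above mock with Flag-Dppa2 in the first line and 0.41 below it (-0.41) in the second. Fgfr1 stood at -0.68 from wild type in mock knockout in the first line and 0.32 in the second on 1 probe (A_52_P136162), and at -0.41 and 0.42 on another (A_52_P668810). Fgfr2 stood at -0.62 from wild type with Flag-Dppa2 in the first line and 0.42 in the second on 1 probe (A_51_P432403), and at -0.68 and 0.65 on another (A_52_P363110).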

How the results depend on the processing

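The members' 14 differences kept their sign for mock against wild type under every alternative run for Dusp9, Dusp6, Dusp4, Spry2, Spry4, Spred1, Etv4, Egr1 and Fos, and not for Etv5. Over the 3 comparisons 672 of 688 recomputed differences moved by less than the spread between replicates, 16 moved by more, and 25 changed sign. These counts are no measure of robustness. Changes of filter, of the fit or of the third group's arrays leave a difference of group means as it was. Only other background correction or scaling, or leaving out an array of the groups compared, can move it. For mock against wild type the brighter Dusp9 probe moved by more than that spread from 0.940 with normexp (0.889), quantile normalization (0.853) and the deposited values (0.853). No slide block could be fitted, since the Flag-Dppa2 arrays alone share the second slide, so the slide was tried only within the first slide. Depth here means signal over background, which limits Fos, Spred1 and the dimmer Spry4 probe.

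Called probes for mock against wild type, Flag-Dppa2 against mock and Flag-Dppa2 against wild type were 1322, 143 and 146. Normexp gave 50 and 442 for the latter comparisons, probes above background on all 6 arrays 20 and 14, no filter 467, 45 and 8, and wild type as 1 sample 0, 0 and 0. Only the arrays of the groups compared gave 0 and 15 for the latter comparisons, and an intensity trend gave 2074, 95 and 304. The replicate block gave 569, 4 and 0, and a replicate block on only the 4 knockout arrays, added after seeing the data, gave 0 for Flag-Dppa2 against mock. Leaving out 1 array gave 0 to 1055, 0 to 100 and 0 to 15, with 0 in all 3 comparisons without either wild-type array.

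Of the other pathway genes 4 were called for mock against wild type. With only the arrays of the groups compared the count was also 4, but the genes were Fgf5, Fgf8, Fgf10 and Ier3, without Ksr1 and Nr4a1. Normexp called 7, an intensity trend 8, no filter 1, the replicate block 1, wild type as 1 sample 0, and leaving out 1 array 0 to 4. For Flag-Dppa2 against wild type normexp called 2, Fgf8 and Ier3, and an intensity trend 1, Ier3. Member probes with Flag-Dppa2 above mock numbered 4 to 8 with 1 array left out. Where calls were lost the cause was not tested.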
